A study of Mus musculus with 57 samples.

Results

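All animals in this comparison were heavy ethanol drinkers, and the question was whether the mice with the highest voluntary intake differed in ventral midbrain (VMB) gene expression from mice that drank heavily but less. The 10 VMB arrays were chosen by mouse number out of 57 arrays in the series and 19 from VMB. Mice 1, 4, 12, 13 and 17 formed the heaviest group, with an average intake of about 11 to 14 g/kg/18 h, and mice 2, 7, 8, 15 and 19 the moderately heavy group, at about 7 to 9.5 g/kg/18 h. The array labels give the region and a replicate number but no intake. The replicate number was taken to be the mouse number of a published bar chart, which the labels do not state. If the numbers do not match, neither the groups nor the pairing of regions would hold. The intake ranges were read by eye from that chart, so a mouse near the edge of either range could be misplaced.

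Both groups were male mice of the inbred strain C57BL/6NCrl, aged 42 to 49 days on arrival, with no allele or drug named in the labels that set them apart. Every mouse could choose between 10% (w/v) ethanol and tap water for 18 h a day, with only water for the other 6 h. After 4 consecutive sessions came 4 days without ethanol, and the cycle ran until 16 sessions were complete. Brains were taken 6 days after the last of them, so no comparison here is with a mouse that had no access to ethanol. Each array held labeled RNA of 1 region of 1 mouse, and expression is given as the RMA value, a normalized log2 intensity on which a difference of 0.5 is a 1.41-fold difference.

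The ventral midbrain contains the ventral tegmental area, the name the labels give to these samples. Its dopamine neurons project to the nucleus accumbens (NAc) and the prefrontal cortex (PFC) and take part in reward, and ethanol raises their firing. GABA neurons in the same area restrain them, glutamate neurons lie among them, and peptides such as those made from *Cartpt* and *Adcyap1* act on them. A dissected piece of tissue holds all of these cells with glia and vessels, and can include parts of the thalamus, hypothalamus or other neighbours.

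The tissue carried the main transcripts of dopamine synthesis and transport, but not every marker of dopamine neurons was highest in it. The gene of the dopamine transporter, *Slc6a3*, averaged 9.11 on the 10 VMB arrays, against 4.79 in NAc and 3.96 in PFC of the same mice, and *Th*, the rate-limiting enzyme of dopamine synthesis, averaged 8.18, 6.59 and 4.56. *Slc17a6*, the vesicular glutamate transporter of subcortical neurons, averaged 10.43 in VMB, 6.23 in NAc and 5.68 in PFC. The midbrain transcription factor genes *Pitx3* and *Lmx1b* averaged only 4.63 and 4.02 in VMB, and 5.28 and 4.73 in NAc. In VMB *Pitx3* lay close to 4.5, the level of the filter, which serves here as a floor, and *Lmx1b* lay below it. *Nr4a2*, another transcription factor of dopamine neurons, averaged 5.32 in VMB and 6.33 in NAc, and *Drd2*, which striatal neurons also express, 5.64 and 8.62. The 45 pairs of VMB arrays correlated at 0.976 to 0.997 (median 0.989, across probesets, which are not independent). The first principal component held 39.1% of the variance and did not separate the groups: mice 1, 7 and 2 had the highest scores, and mice 17 and 19 the lowest.

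No probeset passed the test between heaviest and moderately heavy drinkers in VMB. Of 19815 probesets tested by limma with Benjamini-Hochberg adjustment, 0 had an adjusted p under 0.01 (0% of those tested) and 0 an adjusted p under 0.05, and the lowest adjusted p was 0.9999. Before adjustment 202 probesets lay under 0.05, or 1.02% of those tested, where uniform p-values would give 991. This count depended on single mice, and with 1 mouse left out it ran from 131 (without mouse 8) to 942 (without mouse 19). Of the 202, 122 were higher in the heaviest group (0.616%) and 80 lower (0.404%). The 5 heaviest and 5 moderately heavy mice did not overlap for 14 probesets (0.0707%), 7 in each direction (0.0353% each), and with 1 probeset per gene for 8 of 11342 genes (0.0705%). These counts are the background for every gene named here, and no named gene passed the test.

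The intervals, each taken for its own probeset alone, bounded the size of most measured differences. The median half-width of the 95% confidence interval was 0.239, and for 17488 probesets (88.3%) the whole interval lay within 0.5 of zero on either side. Of the probesets tested, 15929 averaged 4.5 or more over the 10 VMB arrays. RMA compresses differences near background, so below that level a narrow interval does not bound the true difference. The difference in means was under 0.2 for 92.2% of the probesets and reached 0.5 for 31, and no probeset reached 1. The largest was 0.88, for *Pcp2*, a Purkinje cell gene described below with the tissue markers, whose interval ran from -0.86 to 2.62. With 5 mice in each group and this many probesets, the adjusted test called none of the differences seen here, whatever the width of their interval, and a missed threshold does not show that the groups are alike.

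No dopamine neuron gene passed the test between the groups, and most had a lower mean in the heaviest group. *Slc6a3* was at 9.25, 8.68, 8.76, 9.39 and 8.96 in mice 1, 4, 12, 13 and 17 of the heaviest group, and at 9.19, 9.04, 9.13, 9.33 and 9.39 in mice 2, 7, 8, 15 and 19 of the moderate group. The groups overlapped, the mean difference (heaviest minus moderate, here and below) was -0.21 with a 95% interval of -0.51 to 0.09, and the exact two-sided permutation p was 0.214. *Th* differed by -0.14 (-0.41 to 0.14, exact permutation p = 0.357), with mouse 12 lowest at 7.74 and mouse 15 highest at 8.46. *Ddc*, which encodes the enzyme that turns L-DOPA into dopamine, differed by -0.12 (-0.38 to 0.14, exact permutation p = 0.357). The D2 receptor gene *Drd2*, whose product acts as an autoreceptor on these neurons, differed by -0.02 (-0.30 to 0.26, exact permutation p = 0.913), and the sign of *Drd2* and of *Ddc* turned under other processing.

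Over the 18 tested genes of the dopamine neuron list, 4 were higher and 14 lower in the heaviest group and 0 passed the test, with a median difference of -0.08. Over all 11342 genes with 1 probeset each, 45.2% were higher and the median was -0.01. *Foxa1*, a transcription factor of midbrain floor plate and dopamine neurons, had the lowest value of the list, -0.32 (-0.65 to 0.01), and *Calb1*, a calcium-binding protein of ventral tegmental neurons, the highest, 0.20 (-0.10 to 0.51). For 13 of the 18 genes the interval excluded a difference of 0.5 in either direction. The mean level of the list ranged from 6.38 to 6.64 in the heaviest and from 6.49 to 6.60 in the moderate group. In tissue of this kind, fewer cells of a type and less RNA per cell cannot be told apart.

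Markers of the thalamus varied far more from mouse to mouse than those of dopamine neurons. All 7 tested thalamus genes had a higher mean in the heaviest group, with a median difference of 0.40, but 0 passed the test and 0 had an unadjusted p under 0.05. *Prkcd*, a protein kinase C gene abundant in thalamic relay neurons, was at 10.62, 9.64, 9.75, 9.08 and 8.97 in the heaviest mice and at 7.67, 9.15, 8.32, 8.88 and 9.95 in the moderate mice, in the order of mice given above. Mouse 19 of the moderate group lay among the highest and mouse 2 was the lowest, so the groups overlapped, and the difference was 0.82 (-0.04 to 1.68, exact permutation p = 0.159). *Tcf7l2* differed by 0.44, *Rora* by 0.43, *Gbx2* by 0.40 and *Lef1* by 0.39, all of them transcription factors of thalamic neurons. *Rgs16* and *Synpo2*, the other members, differed by 0.40 and 0.33.

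The mean of the 7 thalamus genes was 7.59, 6.97, 6.98, 6.66 and 6.68 in the heaviest mice. In the moderate mice it was 5.83, 6.57, 6.27, 6.47 and 7.45. Apart from mouse 19, every moderate mouse lay below every heaviest mouse. Without mouse 19 the differences of the 7 genes ran from 0.58 to 1.11 with a median of 0.61, and all 7 had an unadjusted p under 0.05, against 4.75% of all probesets, while none passed the adjustment (lowest adjusted p = 0.991 by limma). Mouse 19 was set aside because of its high thalamus values, so this separation follows from that choice and is no evidence of a group difference. With all 10 mice the exact permutation p of the 7 genes ran from 0.159 to 0.413. The part of thalamic tissue in the other results was not tested.

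Genes known for their expression in the cerebellum were among those that varied most within the groups, a list drawn up after the values were seen and therefore given with no test. *Gabra6*, the GABA-A receptor subunit of cerebellar granule cells, was at 3.41, 7.76, 7.48, 7.87 and 3.71 in the heaviest mice and at 6.61, 4.01, 5.93, 7.38 and 3.76 in the moderate mice. The span from 3.41 to 7.87 is 21.9-fold. Mice 4, 12, 13 and 15 were high, mice 2 and 8 lay between, and mice 1, 7, 17 and 19 were near the floor, so that both groups held both extremes. *Pcp2*, specific to Purkinje cells, spanned 4.62 to 8.71, *Car8*, also of Purkinje cells, 5.74 to 8.73, and *Neurod1*, a granule cell transcription factor, 4.67 to 6.95, and in each the same 4 mice were the highest.

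Other tissue genes were high in single mice. *Ttr*, transthyretin of the choroid plexus, was at 7.16, 6.85 and 6.21 in mice 2, 12 and 8 and between 4.23 and 5.07 in the others. *Hcrt*, the orexin precursor of lateral hypothalamic neurons, was at 7.82 in mouse 8 and between 5.02 and 5.51 in the others. A growth hormone probeset (*Gh*) was at 7.49 in mouse 4 and at most 5.03 elsewhere. A second kind of variation concerned probesets of other widely expressed or neuronal genes. Those of *Gnb1*, *Actb* and *Rpl27a* were highest in mice 1, 2 and 7, and those of *Uhmk1*, *Map2* and *Norad* were highest in mice 4, 17 and 19. Both sets of mice contain both drinking groups, and the part of any of these transcripts in the results was not tested.

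**Figure D1:**
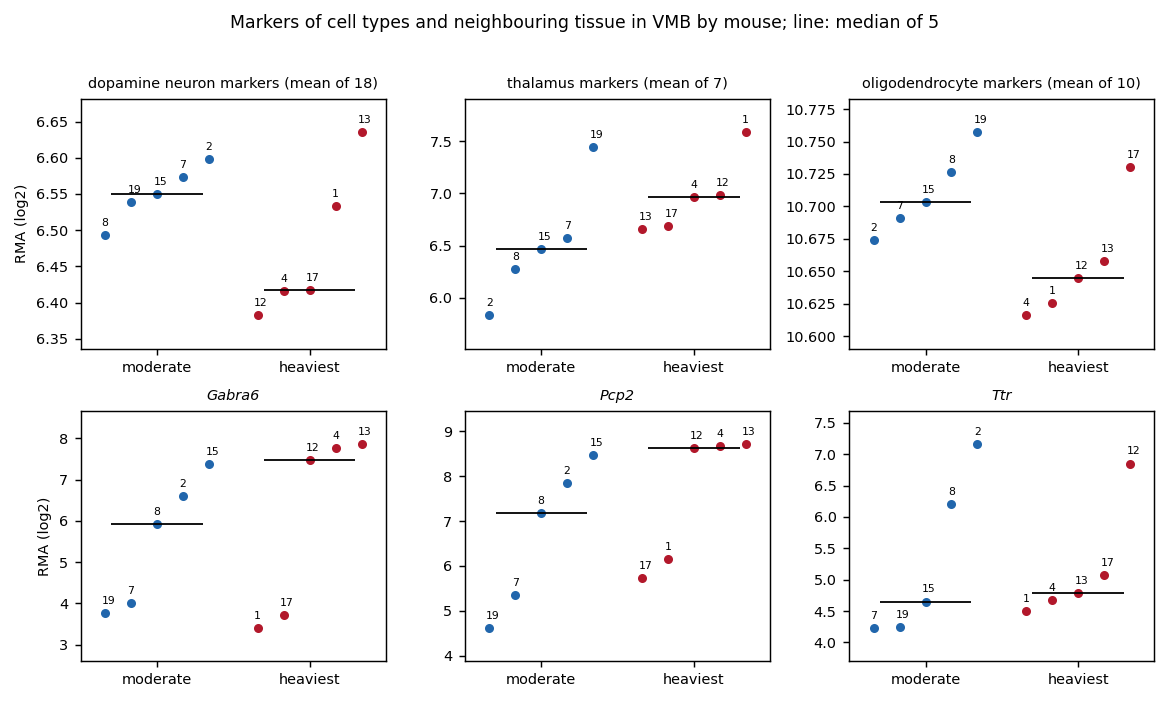
Levels of marker lists and single genes in VMB (RMA, log2) for each mouse, with the moderately heavy group on the left in blue, the heaviest group on the right in red, mouse numbers beside the points and a line at the median of 5 mice. The thalamus mean is between 5.83 and 7.59 with mouse 19 as the 1 moderate mouse among the heaviest, *Gabra6* and *Pcp2* are high in mice 4, 12, 13 and 15, and the panels have different scales, since the dopamine neuron mean spans only 6.38 to 6.64.

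The glial and vascular lists had medians between -0.09 and 0.02, against -0.01 over all genes, of which 45.2% were higher. Of 10 oligodendrocyte genes 2 were higher and 8 lower in the heaviest group (median -0.06), of 13 microglial genes 3 were higher and 10 lower (median -0.08), and of 14 genes of endothelial and mural cells 4 were higher and 10 lower (median -0.09). Astrocyte genes were split 8 and 6 (median 0.02), and markers of GABA neurons 4 and 4 (median 0.01). None of these genes had an unadjusted p under 0.05. The oligodendrocyte mean ranged from 10.62 to 10.73 in the heaviest and from 10.67 to 10.76 in the moderate mice, a narrow band beside that of the thalamus genes.

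Among single genes, the 10 with the lowest limma p on each side were examined in every mouse. Differences on the higher side ran from 0.25 to 0.61 and on the lower side from -0.43 to -0.23, so the sizes lay between 1.18-fold and 1.53-fold. The adjusted p of each was 0.9999, and exact permutation p-values ran from 0.00794, the smallest that the splits of 10 mice into 5 and 5 allow, to 0.0556. As these genes were picked for their low p, their exact p-values describe the separation and do not test it anew. For 5 of the 20 the groups did not overlap, which holds for 0.0707% of all probesets.

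On the higher side, *Cdk5r1*, which encodes p35, the neuronal activator of cyclin-dependent kinase 5, ranked first. It was at 6.39, 6.50, 5.97, 6.09 and 6.13 in the heaviest mice and at 5.51, 5.33, 5.70, 5.56 and 6.13 in the moderate mice. Only mouse 19 of the moderate group reached the heaviest range, and the difference was 0.57 (0.25 to 0.89, exact permutation p = 0.0317). The 3 other *Cdk5r1* probesets differed in the same direction by 0.29, 0.13 and 0.21.

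*Kitl*, the ligand of the KIT receptor, had the largest difference of the 20. Its values were 7.58, 7.50, 7.57, 7.36 and 7.15 in the heaviest mice and 6.51, 6.47, 6.69, 6.76 and 7.70 in the moderate mice. Mouse 19 was the highest of all 10, and the other 4 moderate mice lay below every heaviest mouse. The difference was 0.61 (0.17 to 1.05, exact permutation p = 0.0476) with all mice and 0.83 without mouse 19, where the adjusted p was 0.178 by limma.

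Mouse 19 held the same place for most of these genes. The groups did not overlap for 3 of the 10 higher genes with all mice and for 9 of 10 without mouse 19. For the 10 lower genes the counts were 2 and 3. The mouse was again chosen after its values were seen. Without it, 4.75% of all probesets had an unadjusted p under 0.05 by limma, against 1.02% with all mice. The share of all probesets without overlap is not given for that setting, so the counts without mouse 19 have no background. *Elmo1*, an activator of Rac signaling in cell migration, differed by 0.55, *Rab37*, a small GTPase of vesicle secretion, by 0.49, *Pcp4l1*, a homolog of the calmodulin regulator Pcp4, by 0.39, *Aen*, a nuclease induced by p53, by 0.38 and *Ncdn*, a neuronal protein of neurite outgrowth, by 0.32. For *Aen* 1 of 2 other probesets had the opposite sign (-0.06).

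Mouse 19 was high for these genes and for the thalamus markers alike, and the difference was recomputed with the thalamus mean of each array as a covariate, a choice made after seeing the data. The difference in *Kitl* was then 0.32, in *Rab37* 0.27, in *Elmo1* 0.39 and in *Cdk5r1* 0.41. With the covariate, 9 of the 10 higher differences and 8 of the 10 lower ones were smaller in size. These genes were picked for their low p without the covariate, and the share of all probesets with a smaller difference is not given. The value with the covariate was 0.53 to 1.01 times the original over the 10 higher genes and 0.74 to 1.12 times over the 10 lower genes. The number of probesets with an unadjusted p under 0.05 was 69 (0.348%). The covariate rests on the same 10 arrays, so it describes how the values move together and assigns no source to them.

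*Mchr1*, *Wnt7a* and *Scn2a* hardly moved with that covariate, and their groups did not overlap. *Mchr1*, the receptor for melanin-concentrating hormone, was at 4.80, 4.90, 4.95, 5.02 and 5.06 in the heaviest and at 4.41, 4.43, 4.60, 4.78 and 4.75 in the moderate mice. Its difference was 0.35 (0.14 to 0.56, exact permutation p = 0.00794) and 0.33 with the covariate, at a level not far above the floor of 4.5.

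*Wnt7a*, a secreted ligand of Wnt signaling, was at 6.01, 5.92, 6.06, 6.20 and 5.88 against 5.82, 5.85, 5.69, 5.57 and 5.78. The nearest mice of the 2 groups were mouse 17 at 5.88 and mouse 7 at 5.85. The difference was 0.27 (0.08 to 0.46, exact permutation p = 0.00794), and 0.28 with the covariate. *Scn2a*, a voltage-gated sodium channel of neurons, was at 8.20, 8.51, 8.42, 8.31 and 8.36 against 7.93, 8.13, 8.17, 8.20 and 8.10. Mice 1 and 15 had nearly equal values, and the difference was 0.25 (0.07 to 0.44, exact permutation p = 0.00794).

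*Ilrun*, a regulator of inflammatory signaling, was the remaining higher gene without overlap among those described, at 6.99 to 7.14 in the heaviest and 6.49 to 6.97 in the moderate mice. Its difference was 0.24 (0.03 to 0.45), and 0.16 without mouse 2, the lowest.

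On the lower side, *Cartpt*, the precursor of the CART peptides, had the largest difference of the 10 ranked genes. Some genes that varied more within the groups had larger negative differences, such as *Crym* at -0.68 and *Hcrt* at -0.49. *Cartpt* was at 9.53, 8.89, 9.62, 9.75 and 9.67 in the heaviest mice and at 9.94, 9.97, 9.92, 9.83 and 9.93 in the moderate mice. Every heaviest mouse was below every moderate mouse, the moderate values lay close together, and mouse 4 was far below the rest. The difference was -0.43 (-0.73 to -0.12, exact permutation p = 0.00794), -0.28 without mouse 4 and -0.40 with the thalamus covariate.

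CART peptides and urocortin are both products of neurons of the Edinger-Westphal nucleus, a midbrain nucleus near the midline. *Ucn*, the urocortin gene, differed by -0.21 (-0.44 to 0.02) and was looked up after the value of *Cartpt* was seen. *Adcyap1*, the gene of the peptide PACAP, differed by -0.28 (-0.53 to -0.02, exact permutation p = 0.0635). Of the 23 genes in the list of neuropeptides of reward and stress with their receptors, 10 were higher and 13 lower (median -0.02). By limma, 2 had an unadjusted p under 0.05, against 0.802% of all genes with 1 probeset each, and 0 passed the test.

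*Nectin3*, a cell adhesion gene, was at 4.70, 4.71, 4.77, 4.93 and 4.92 in the heaviest mice and at 5.19, 5.20, 5.17, 4.98 and 4.98 in the moderate mice, with no overlap. The difference was -0.30 (-0.48 to -0.11, exact permutation p = 0.00794). Of its 4 other probesets, 2 lay below the floor of detection, 1 had a lower mean in the heaviest group (-0.39) and 1 a higher mean (0.18, -0.26 to 0.62). *Cdkn1a*, which encodes the cell cycle inhibitor p21, differed by -0.23 (-0.41 to -0.05, exact permutation p = 0.0159), and only mouse 13 at 5.86 reached the moderate range of 5.77 to 6.04.

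The other lower genes had differences between -0.33 and -0.25 and overlapping groups. They were *Retsat*, a retinol saturase, *Nudt7*, a peroxisomal enzyme that cleaves coenzyme A, *C8g*, a subunit of complement C8, *Cp*, the copper carrier ceruloplasmin, *Polr3e*, a subunit of RNA polymerase III, *Ppp4r3b*, a regulatory subunit of protein phosphatase 4, and *4632415L05Rik*. Other probesets of these genes, where there were any, had smaller differences. For *Cp*, 5 of 6 had the same sign, between -0.19 and -0.08, and 1 the opposite (0.07). The other probeset of *Retsat* differed by -0.04 and that of *Polr3e* by -0.08, and those of *Ppp4r3b* by -0.01, -0.03 and -0.16. The ranked probesets of *Cp* (4.60 and 4.86 in the heaviest and moderate mice) and *C8g* (4.66 and 4.96) lay not far above the floor of 4.5. *Qprt*, which makes the NAD precursor nicotinate mononucleotide from quinolinate, was outside the first 10 but without overlap, at 4.75 to 4.88 in the heaviest and 4.90 to 5.26 in the moderate mice, with a difference of -0.20 (-0.38 to -0.02). It was -0.14 without mouse 15, the highest.

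**Figure D2:**
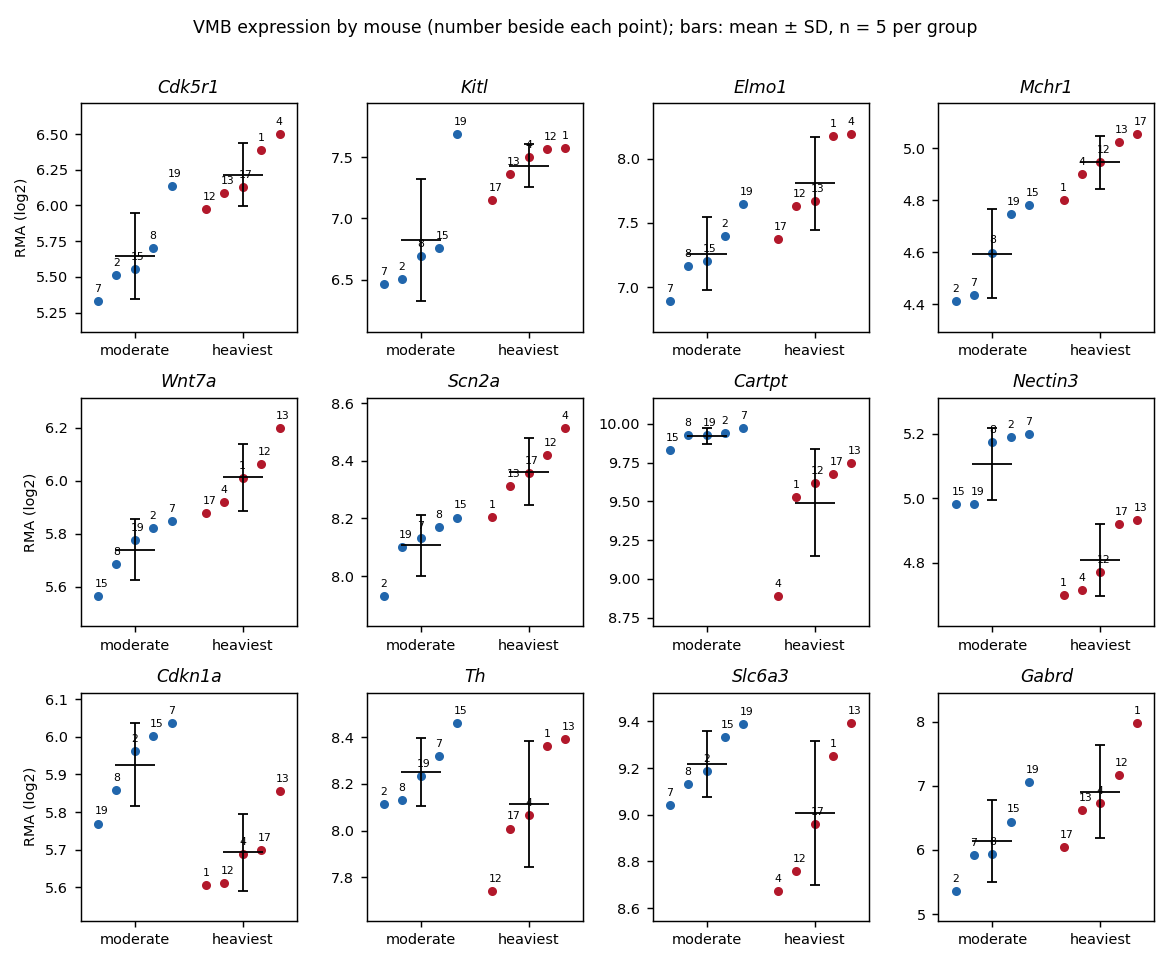
VMB expression (RMA, log2) of 12 genes in each mouse, moderately heavy drinkers on the left in blue and heaviest drinkers on the right in red, with mouse numbers above the points and bars for the mean ± SD of 5 mice. The groups are apart for *Mchr1*, *Wnt7a*, *Scn2a*, *Cartpt* and *Nectin3*, mouse 19 lies among the heaviest mice for *Cdk5r1* and *Kitl*, and the groups overlap widely for *Th* and *Slc6a3*.

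**Figure D3:**
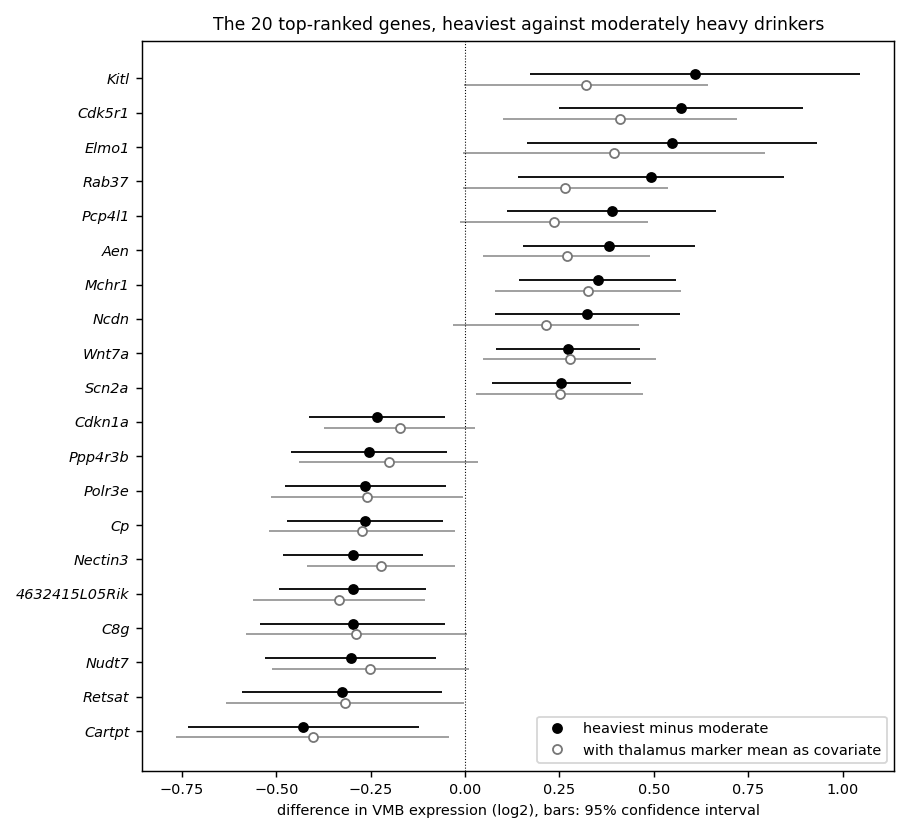
Difference in VMB expression (heaviest minus moderate, log2) of the 20 genes with the lowest limma p, 10 in each direction, with 95% confidence intervals, in black as measured and in grey with the thalamus marker mean as a covariate. The differences run from -0.43 for *Cartpt* to 0.61 for *Kitl*, the value of *Kitl* with the covariate is 0.32, and *Mchr1*, *Wnt7a*, *Scn2a* and *Cartpt* stay nearly in place.

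Receptors and channels that ethanol acts on gave no difference that passed the test. GABA-A receptors, whose function ethanol enhances, had 6 of 12 tested subunit genes higher and 6 lower (median 0.03). *Gabrd*, the extrasynaptic delta subunit, known to be abundant in thalamic relay neurons and cerebellar granule cells, was at 7.99, 6.73, 7.17, 6.62 and 6.05 in the heaviest mice and at 5.37, 5.92, 5.93, 6.44 and 7.06 in the moderate mice. The groups overlapped, and the difference was 0.77 (0.00 to 1.53, exact permutation p = 0.119). With the thalamus covariate it was 0.20, and without mouse 1, the highest, 0.50. *Gabra6*, *Gabrb2* and *Gabra3* followed at 0.51, 0.45 and 0.36, with intervals that included zero, and *Gabra2*, the other alpha subunit tested, was at -0.12 (-0.29 to 0.04).

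Ionotropic glutamate receptors had 9 of 12 genes higher and 3 lower, with a median of 0.11, from *Grin2c* at 0.23 to *Grik1* at -0.07. The list of metabotropic glutamate receptors and their scaffolds had 4 tested genes (median 0.13). Its higher genes were the scaffolds *Homer1* at 0.17, *Homer2* at 0.17 and *Homer3* at 0.09, while the only receptor tested, *Grm8*, was at -0.002. With the thalamus covariate these medians were 0.05 and 0.03. Potassium channel genes were higher for 14 of 21 (median 0.05). *Kcnma1*, the pore of the BK channel, a calcium-activated channel that ethanol opens, differed by 0.20 (0.02 to 0.39, exact permutation p = 0.0317), and by 0.14 with the covariate. *Htr3b*, a subunit of the ethanol-sensitive 5-HT3 receptor, was at or below the floor at 3.66 to 4.06 and differed by -0.01 (-0.20 to 0.18).

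Opioid peptides and receptors were split 4 and 4, from *Oprl1* at 0.20 to *Penk*, the enkephalin precursor, at -0.20. The cannabinoid receptor gene *Cnr1* differed by 0.36 (-0.16 to 0.88). Among 13 genes of ethanol and acetaldehyde metabolism, 5 were higher and 8 lower, and the differences lay between *Aldh1b1* at 0.13 and *Aldh3a2* at -0.10. *Aldh2*, the main mitochondrial enzyme for acetaldehyde, differed by -0.05 (-0.26 to 0.16).

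No gene of recent activity or of stress passed the test 6 days after drinking. Immediate early genes were split 10 and 11 (median -0.01), and 2 of the 21 had an unadjusted p under 0.05, against 0.802% of all genes with 1 probeset each. *Fos* differed by 0.12 (-0.21 to 0.44) and *Arc* by 0.03 (-0.25 to 0.30), while *Klf4* was at -0.23 (-0.44 to -0.03, exact permutation p = 0.0317) and *Junb* at -0.17 (-0.34 to 0.00, exact permutation p = 0.0238), both transcription factors. The other *Klf4* probeset lay below the floor of detection in both groups. Of 14 glucocorticoid-responsive genes 3 were higher and 11 lower (median -0.06), where 45.2% of all genes were higher, and 1 of them, *Cdkn1a*, had an unadjusted p under 0.05. The list included *Sgk1*, a kinase induced by corticosterone, at -0.30 (-0.99 to 0.39) and *Fkbp5* at 0.00. *Bdnf* differed by 0.07 (-0.16 to 0.29).

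Chemotaxis and Toll-like receptor genes were split 11 and 11 (median -0.01). *Cx3cl1*, the neuronal chemokine fractalkine, differed by 0.30 (0.01 to 0.59, exact permutation p = 0.0952) and by 0.14 with the thalamus covariate. Cell adhesion genes were split 14 and 12 (median 0.01), with *Alcam* at -0.27 (-0.53 to -0.01, exact permutation p = 0.0952). The other *Alcam* probeset averaged 7.03 in the heaviest and 7.04 in the moderate mice and differed by -0.005 (-0.43 to 0.42). *Avp*, the vasopressin gene, on the hypothalamus list, was at 4.81 to 5.10 in the heaviest and 4.46 to 4.83 in the moderate mice, a difference of 0.26 (0.04 to 0.48, exact permutation p = 0.0317).

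Large gene groups of cell maintenance and chromatin gave small values. Over all genes 45.2% were higher and the median was -0.01. Of 40 genes of oxidative phosphorylation 13 were higher and 27 lower (median -0.02). Of 25 cytoplasmic ribosomal protein genes 5 were higher and 20 lower (median -0.04), and of 31 proteasome genes 12 and 19 (median -0.01). Histone deacetylases and corepressors were split 10 and 8 (median 0.02), histone acetyltransferases 6 and 5 (median 0.00), and genes of DNA and histone methylation 9 and 15 (median -0.02). Over the 38 genes of the synaptic vesicle cycle 23 were higher (median 0.03), from *Syt1*, the calcium sensor of release, at 0.45 (-0.23 to 1.12) to *Cplx2* at -0.30 (-0.83 to 0.23).

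Across the 39 lists, 578 different genes were tested, 0 passed the adjustment and 10 (1.73%) had an unadjusted p under 0.05, against 0.802% of all genes with 1 probeset each. The absolute median was under 0.1 in 36 lists, and the 3 others were the thalamus markers, the ionotropic glutamate receptors and the list made up mainly of Homer scaffolds.

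**Figure D4:**
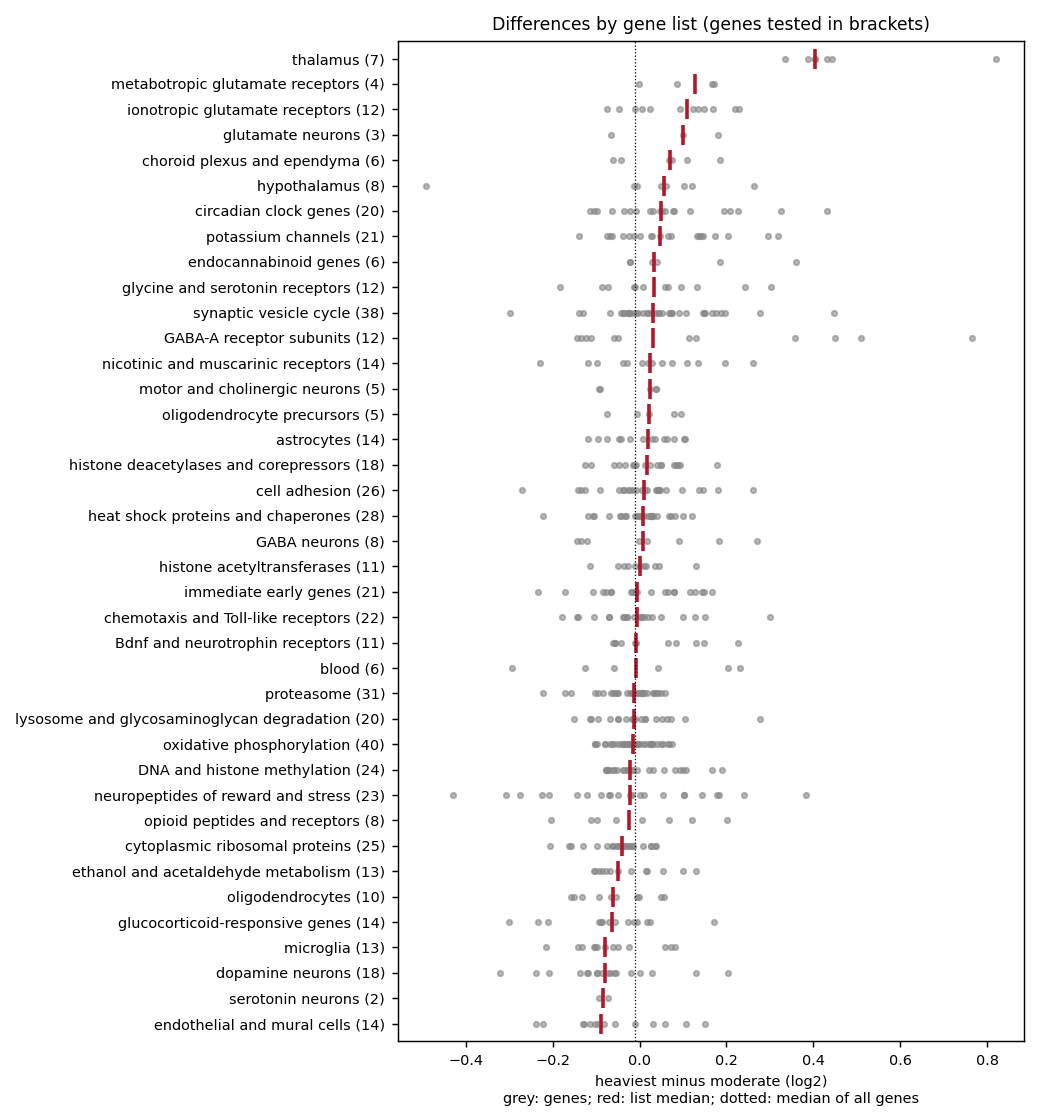
Differences in VMB (heaviest minus moderate, log2) of the tested genes of each of 39 lists, one grey point per gene, with the list median in red, the number of genes in brackets and a dotted line at the median of all genes (-0.01). All 7 thalamus genes lie to the right, between 0.33 and 0.82, and the medians of the other lists lie between -0.09 and 0.13.

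The same contrast was then set beside NAc and PFC of the same 10 mice, where the mouse pairs the arrays. The difference in VMB minus that in NAc was tested within mice, and 0 of 19815 probesets had an adjusted p under 0.01 by limma (0%), with 374 (1.89%) under 0.05 before adjustment. For VMB minus PFC the counts were 0 and 584 (2.95%), and the lowest adjusted p was 0.99997 and 0.9998. Mouse 19 bore on both, since without it 3504 of the 19815 probesets for NAc and 1208 for PFC lay under the unadjusted threshold. Uniform p-values would give 991, and mouse 19 was singled out after its values were seen. The counts at an adjusted p under 0.01 were still 0, and the lowest adjusted p by limma was then 0.0995 and 0.802.

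For the 20 genes ranked in VMB, differences between the same mice ran from -0.19 to 0.22 in NAc and from -0.20 to 0.16 in PFC. *Cdk5r1* differed by 0.57 in VMB, 0.09 in NAc and -0.19 in PFC, and *Kitl* by 0.61, -0.03 and -0.06. *Cartpt* differed by -0.43 in VMB, 0.05 in NAc and 0.10 in PFC. *Cdkn1a* differed by -0.23 in VMB, 0.22 in NAc and 0.16 in PFC. The genes had been chosen for their VMB values, so the smaller values elsewhere are a description, and no difference between regions passed the test for any of them (lowest adjusted p = 0.9998 by limma).

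**Figure D5:**
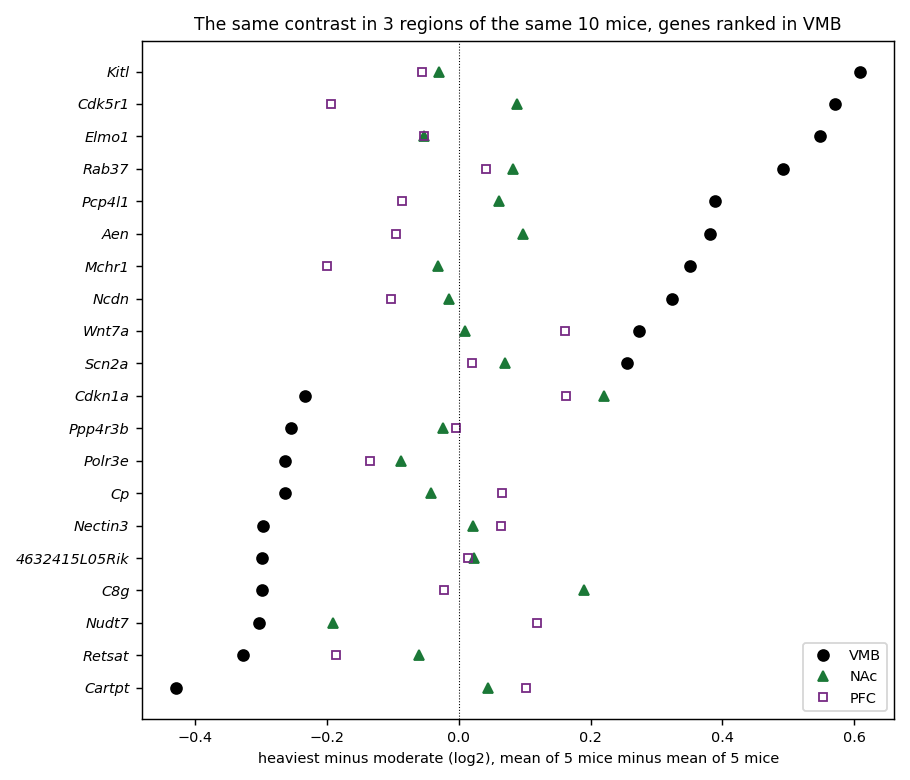
Heaviest minus moderate (mean of 5 mice minus mean of 5 mice, log2) in VMB, NAc and PFC of the same 10 mice for the 20 genes ranked in VMB. VMB values (black circles) run from -0.43 to 0.61 by choice of the genes, and NAc (green triangles) and PFC (open squares) values lie between -0.20 and 0.22.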

How the data were processed

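The values were the RMA signals that the authors deposited, on a log2 scale, for 22626 probesets of an Affymetrix mouse array. GCOS and RMA are named in the submitters' notes on processing, with no version. RMA was run over many arrays together and compresses differences near background. Array medians were 6.21 to 6.29 over the 10 VMB arrays, and none were identical. Arrays have no read depth, and their number limits the precision.

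A probeset was tested when it reached 4.5 on at least 1 of the 57 arrays, so that 19815 entered the fits and 2811 did not. A single gene symbol was available for 20380 probesets, several for 691 and none for 1555. Symbols were updated from a reference table of assembly GRCm38.p6, used for names only. For lists, the probeset of highest mean in VMB stood for a gene. One PFC array of a mouse outside the comparison has conflicting region labels and entered only the filter.

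The 5 heaviest and 5 moderately heavy mice were compared with limma 3.58.1 in R 4.3.3 (lmFit and eBayes, Benjamini-Hochberg over all tested probesets, false discovery rate 1%), and named genes also by an exact two-sided permutation test over all splits into 5 and 5. Regions were compared on within-mouse differences, with arrays of the same replicate number taken to come from the same animal. The script was tested on simulated data. Each array came from 1 animal, and the methods state that mice were housed individually before drinking began. Array batches are not given in the sources used here.

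Genes were named when they had the 10 lowest p-values on either side (single symbol, mean of 4.5 or more in VMB), were among the 4 largest differences without overlap on either side, were among up to 3 members of a list with an unadjusted p under 0.05, or were *Th*, *Ddc*, *Slc6a3*, *Slc18a2*, *Drd2* or *Htr3b*. *Slc18a2* was not analysed here. Others were named from lists after their values were seen. The mice and the 39 lists (14 of cell type or tissue markers) were chosen with earlier results of these data known. Alternatives covered the filter, quantile normalization, array weights, the arrays in the fit, moderation, covariates, 1 probeset per gene, the replicate block and each mouse left out.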

Additional observations from a re-analysis of the deposited data

Results flagged for a closer look

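In 70 groups of 5 mice (35 named genes in each drinking group), 3 values stood apart from the other 4 of their group by Dixon's criterion, which chance meets in about 1 of 20 groups. *Kitl* was at 7.70 in mouse 19 of the moderately heavy group, where the nearest mouse was at 6.76. *Cartpt* was at 8.89 in mouse 4 of the heaviest group, where the nearest was at 9.53. *Qprt* was at 5.26 in mouse 15 of the moderately heavy group, where the nearest was at 4.999. No difference between regions passed its test.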

How the results depend on the processing

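The count of probesets with an adjusted p under 0.01 was 0 under every alternative run, as was the count under 0.05, and the lowest adjusted p in VMB was 0.178, without mouse 19. The unadjusted count of 202 was 584 with array weights, 486 with the first principal component as a covariate, 305 with all 19 VMB arrays in the fit, 104 with 1 probeset per gene, where fewer were tested, and 69 with the thalamus mean as a covariate, chosen after seeing the data. Leaving out 1 mouse gave 131 (without mouse 8) to 942 (without mouse 19), with 557 without mouse 12, 400 without mouse 1 and 132 without mouse 4. The cause was not tested. Without the filter, with a filter on the mean, with quantile normalization and with trend and robust options it was 241, 160, 264 and 188.

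For the regions, the fit with no replicate block, which ignores that arrays are paired by mouse, gave 253 unadjusted calls in place of 374 for VMB minus NAc and 564 in place of 584 for VMB minus PFC, and 0 adjusted calls in both. Leaving out 1 mouse gave 256 to 3504 (without mouse 19) against NAc and 375 (without mouse 8) to 1208 (without mouse 19) against PFC, with 1064 without mouse 12. In VMB itself the groups hold different mice, so no pairing applies there.

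Of the 35 genes named by rule and run under each alternative, signs turned for 3. *Ddc*, at -0.12 in the main fit, was 0.022 with array weights and -0.03 with the thalamus covariate, and ran from -0.203 to -0.048 with 1 mouse left out. *Drd2* was 0.048 with array weights and 0.017 with the principal component, and ran from -0.113 to 0.041 with 1 mouse left out. *Htr3b* was 0.0033 with the principal component and 0.014 with the thalamus covariate, and ran from -0.046 to 0.038. The others of the 35 kept their direction under each alternative that could be run. Single marker genes named from lists alone were run only with the thalamus covariate and without mouse 19. With that covariate, of which they are part, the thalamus genes *Tcf7l2*, *Rgs16* and *Synpo2* were at -0.0068, -0.066 and -0.19. With 5 mice per group, the median 95% interval reached 0.239 on either side.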
